A study of Homo sapiens and Mus musculus with 20 samples.

Results

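The replication-dependent histone genes were taken as the protein-coding genes of the GENCODE annotation of GRCh38 whose symbols begin with H1-, H2AC, H2BC, H3C or H4C and that lie in the histone clusters of chromosomes 6 and 1. This gave 68 of 20033 protein-coding genes: 6 for the linker histone H1, 17 for H2A, 18 for H2B, 13 for H3 and 14 for H4. On chromosome 6 they numbered 55 and lay between positions 25723397 and 27893891. On chromosome 1, 11 lay in a cluster between 149782689 and 149887965 and 2 lay between 228434777 and 228463104. No measured value was used to choose them.

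The data were ATAC-seq peak lists from SW480, an established human colorectal adenocarcinoma cell line. In ATAC-seq a transposase cuts and tags open DNA, so that accessible regions gather reads and are called as peaks. SW480 cells received 10 mM sodium propionate (NaPr) or none in one experiment, and 1 mM sodium butyrate (NaBu) or none in another, for 12 to 16 h, with 3 libraries of 50000 cells in each of the 4 groups. The experiments had separate dates and separate untreated libraries and the doses differ, so their values are given side by side and the compounds were not compared. All groups share this one cell line, and the sources used here do not say whether the libraries of a group came from separate cultures, so p-values measure only the spread between these libraries, which may be technical.

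Replication-dependent histone genes supply most new histone protein while DNA is copied. They are short, mostly lack introns, lie in clusters, and are transcribed in nuclear histone locus bodies organised by NPAT. Their mRNAs end in a stem-loop bound by SLBP in place of a poly(A) tail. H2A and H2B genes often face away from each other across a shared promoter, and H2B promoters are known for an octamer motif bound by OCT1. Butyrate is a known inhibitor of the enzymes that remove acetyl groups from histones.

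Promoter sequence was read for 63 of the 68 genes from RefSeq (GRCh38.p14), as 250 bases before and 50 bases after each start, and searched on both strands for 3 motifs. The TATA box was searched as the letters TATAAA. For the CCAAT box the letters were those of its name. The octamer was searched as ATTTGCAT. The 250 bases before the start are printed for 4 genes whose start regions changed rank and for H2BC1, which had no peak in any library, 5′ to 3′ along the gene and with every match in capitals. H2BC8 is shown from chr6:26216689-26216938 on the minus strand, H2BC5 from chr6:26157871-26158120 on the plus strand, H2BC10 from chr6:26272681-26272930 on the plus strand, H4C13 from chr6:27873535-27873784 on the minus strand and H2BC1 from chr6:25726527-25726776 on the plus strand.
H2BC8: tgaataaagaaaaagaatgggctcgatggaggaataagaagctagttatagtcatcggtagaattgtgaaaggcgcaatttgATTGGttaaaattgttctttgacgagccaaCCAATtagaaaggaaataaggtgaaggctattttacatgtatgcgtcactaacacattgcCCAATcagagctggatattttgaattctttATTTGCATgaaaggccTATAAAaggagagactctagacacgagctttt
H2BC5: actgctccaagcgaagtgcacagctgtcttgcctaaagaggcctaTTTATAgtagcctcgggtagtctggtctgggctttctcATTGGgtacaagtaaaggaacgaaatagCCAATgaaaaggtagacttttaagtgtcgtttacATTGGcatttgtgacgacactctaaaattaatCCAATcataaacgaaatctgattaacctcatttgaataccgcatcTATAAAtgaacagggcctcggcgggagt
H2BC10: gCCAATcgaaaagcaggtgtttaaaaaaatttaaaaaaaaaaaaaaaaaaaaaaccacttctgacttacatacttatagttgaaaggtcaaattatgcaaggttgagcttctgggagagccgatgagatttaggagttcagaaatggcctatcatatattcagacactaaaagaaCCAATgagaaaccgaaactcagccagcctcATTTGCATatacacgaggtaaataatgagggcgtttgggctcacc
H4C13: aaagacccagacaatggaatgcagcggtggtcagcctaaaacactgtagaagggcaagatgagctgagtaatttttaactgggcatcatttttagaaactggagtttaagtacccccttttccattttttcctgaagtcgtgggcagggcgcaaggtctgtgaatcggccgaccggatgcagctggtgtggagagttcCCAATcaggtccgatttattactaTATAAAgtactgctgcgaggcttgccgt
H2BC1: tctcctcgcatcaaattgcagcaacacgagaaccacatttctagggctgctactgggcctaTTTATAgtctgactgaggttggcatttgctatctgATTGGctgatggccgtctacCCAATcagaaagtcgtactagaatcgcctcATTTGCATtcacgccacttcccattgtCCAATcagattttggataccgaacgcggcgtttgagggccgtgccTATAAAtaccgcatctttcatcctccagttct

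In H2BC8 the octamer began 48 bases and the TATA box 32 bases before the start. The start of H2AC8 lay 233 bp away on the other strand, so the pair shares this stretch. H2BC5 held TATA and CCAAT boxes and no octamer in these letters, and H2BC10 held an octamer beginning 45 bases before its start and no TATAAA. H4C13 held a TATA box beginning 28 bases and a CCAAT box beginning 52 bases before its start. H2BC1, without a listed peak, held all 3 motifs. No match overlapped another in the 5 printed stretches.

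The classes differed in these letters. A CCAAT box was in all 6 H1, 16 H2A, 18 H2B and 11 H3 promoters read and in 3 of 12 H4 promoters, and was in 34.6% of the 35116 promoters of the table. The octamer was in 14 of 18 H2B and 11 of 16 H2A promoters, in 1 of 11 H3 promoters and in 0 of 6 H1 and 0 of 12 H4 promoters, beside 1.77% of all promoters. Divergent H2A and H2B pairs, such as H2AC8 and H2BC8, have overlapping windows that were searched on both strands. A match between their starts can thus count in both classes, so the H2A and H2B shares are not separate. The TATA box was in 41 of 63, beside 11.5% of all promoters. Median GC content was 43.0% in the 63 windows and 58.7% over all promoters. For 2 of the 63 the RefSeq start lay more than 1 kb from the start used elsewhere here: by 11702 bp at H2BC6, and by 2007 bp at H3C4, where it is the start of H2AC7. This H3C4 window is thus the promoter sequence of H2AC7, and it gave the H3 counts a CCAAT box and their 1 octamer. The H2BC6 window gave the H2B counts a TATA box, a CCAAT box and an octamer. A match is a string of letters and not a measured binding site.

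**Figure D1:**
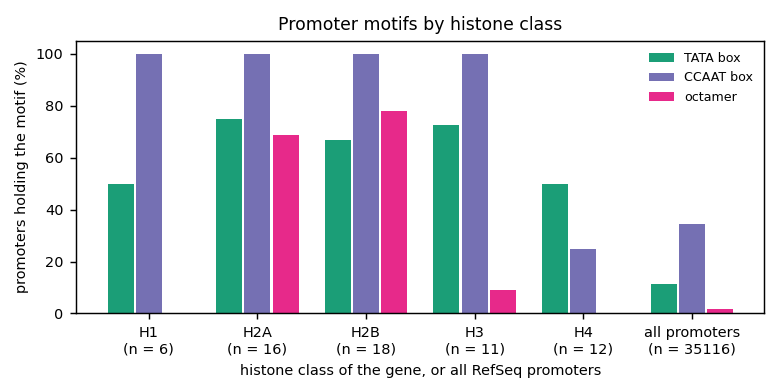
Share of promoters holding each motif on either strand (vertical axis, %) in each histone class and in all RefSeq promoters. The CCAAT box stands at 100% in H1, H2A, H2B and H3 and at 25.0% in H4, and the octamer reaches 68.8% in H2A and 77.8% in H2B beside 1.77% of all promoters. H3 includes the H3C4 window and H2B the H2BC6 window, both read more than 1 kb from the start used elsewhere. Windows of divergent H2A and H2B pairs overlap, so a match can count in both classes.

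Each list held 108442 to 144398 separate peak intervals. Accessibility of a region was expressed as a percentile rank, by the −log10 p that the authors' peak caller gave its strongest peak. Ranks were taken within each library, among its experiment's merged regions with a peak in at least 2 of 6 libraries. These were 129351 regions with NaPr and 127305 with NaBu. The strongest region is at 100, and 0 means that no peak was listed above that list's limit. Regions without a peak fill a library's lowest places, so its weakest listed peak ranks above 0 and losing a peak adds a step. Background tags, the estimated read ends expected at the quietest peaks, were 0.936 to 2.35 in the NaPr libraries and 2.11 to 3.03 in the NaBu libraries. Of 8 epithelial markers, EPCAM, VIL1, KRT8, KRT18, CDH1 and KRT19 had a peak over the start in all 12 libraries, CDX2 in 9 and CDH17 in 0. The 4 leukocyte markers had one in 0 libraries, and no fibroblast or endothelial marker had one in more than 3.

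Accessible chromatin was found over most histone genes. A peak within 1 kb was present in all 12 libraries for 62 of the 68 genes, and 61 had one over the annotated start in all 12. H4C13, an H4 gene, had one over its start in 9 libraries. The other 6 genes had no listed peak within 1 kb in any library. They were H2AC1 and H2BC1, known for expression in testis, the testis linker histone gene H1-6, the linker histone gene H1-1, and the H4 genes H4C6 and H4C7.

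Neighbouring genes often shared one open region. The 62 starts fell in 48 regions in the NaPr experiment and in 46 in the NaBu experiment, and 1 region in each covered the starts of H3C12, H2AC17 and H2BC17. Genes that share a region have the same values and are named together. The median width of these start regions was 1078 bp in the NaPr and 1300 bp in the NaBu experiment. In the larger chromosome 1 cluster the pairs H4C14 and H4C15, H3C14 and H3C15, and H2AC18 and H2AC19 were identical at 881 of 881 bases around their starts, so reads there could belong to either copy and their values are uncertain. Without the 11 genes of that cluster, 51 of 57 had a peak in all 12 libraries.

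Levels differed among the genes, by rank of the start region. H2AC25/H2BC26, the H2A and H2B pair in the smaller group of chromosome 1, was highest at 95.7 to 99.9 over the 12 libraries. H2AC11/H2BC11, another such pair, followed at 94.4 to 98.8, and the H4 gene H4C15 at 89.5 to 96.9. The ranges of these neighbours in the order overlapped. By the median of the 6 untreated libraries of both experiments H2BC9, an H2B gene, was lowest (40.7), at 51.3 to 55.2 in untreated and 37.8 to 42.6 in NaPr-treated libraries, and at 23.8 to 30.0 in untreated and 32.3 to 46.0 in NaBu-treated libraries. Its groups did not overlap in either experiment, with treated below in one and above in the other, and neither difference passed the test. In NaBu-treated libraries H4C13 was below it, with no listed peak. H2BC3, another H2B gene, ranked 64.6 to 78.5 in the NaPr libraries and 36.1 to 51.3 in the NaBu libraries, which do not overlap.

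By class, the median rank of H3 genes, at 72.9 to 82.8 over the 12 libraries, lay below those of H2A genes (83.9 to 89.8), H2B genes (83.1 to 89.8) and H4 genes (84.5 to 92.0) in 12 of 12 libraries. The H1 median, at 72.3 to 85.0, lay below the H2A and H4 medians in 12 of 12. Since genes of different classes share regions, these orders are a description. The median start region of the histone genes ranked 82.5 in untreated NaPr libraries and 86.5 in untreated NaBu libraries, where start regions of other protein-coding genes ranked 90.9 and 90.5.

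**Figure D2:**
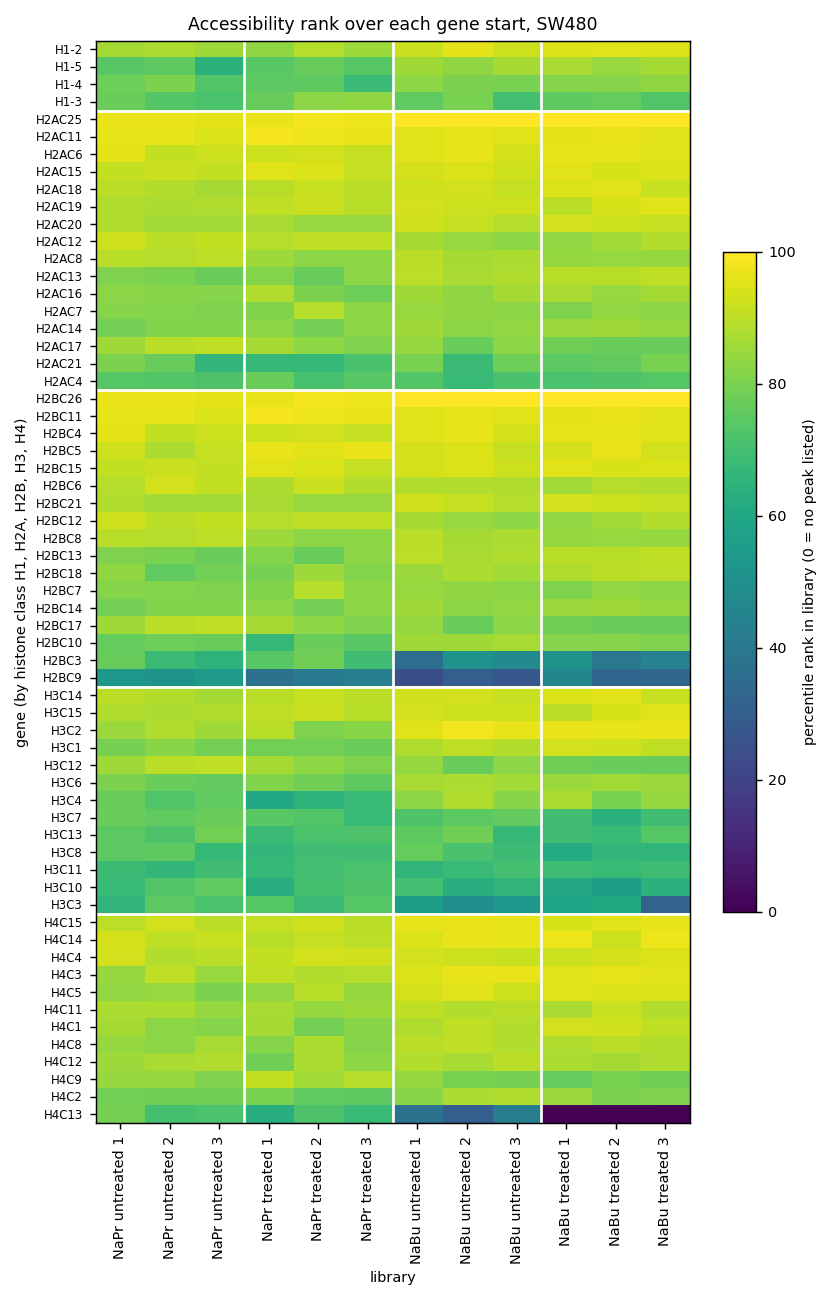
Percentile rank (colour, 0 for no listed peak to 100) of the start region of each of 62 histone genes (rows) in each of 12 SW480 libraries (columns). H2AC25/H2BC26 stay at 95.7 or above, H2BC9 stays at 55.2 or below, and H4C13 is at 0 in the 3 NaBu-treated libraries.

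After NaPr few histone gene starts changed rank. Of 48 start regions, 1 was higher and 1 was lower (limma, Benjamini-Hochberg over all 129351 regions, adjusted p under 0.05). The background was 1.09% higher and 8.96% lower among 11316 start regions of other protein-coding genes, and 4.45% higher and 3.90% lower among all regions. The median change was -0.73 points for the 48 and -0.95 points for the other start regions. Treated ranks lay wholly above untreated ranks in 4 of 48 and wholly below in 5, beside 6.76% and 26.7% of other start regions. By class, 0 of 4 H1, 13 H3 and 12 H4 genes with a start region passed, and the calls were in H2A and H2B genes.

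H2BC5, an H2B gene whose start region reached within 1 kb of the linker histone gene H1-4, rose in rank by −log10 p. Its region, chr6:26157039-26158565, ranked 92.9, 87.8 and 91.2 in untreated and 96.8, 95.3 and 97.2 in NaPr-treated libraries. Every treated library lay above every untreated one, and the change was 5.78 points (SE 1.22, adjusted p = 0.0246 by limma). Recovered tags at its summit were 97, 119 and 187 untreated and 141, 157 and 301 treated. Divided by each list's background tags, the log2 difference was 0.90 (SE 0.22, adjusted p = 0.00144 by limma). With NaBu the groups overlapped at H2BC5, with ranks of 93.6, 94.8 and 91.4 untreated and 93.7, 96.6 and 93.2 treated and a change of 1.23 points (SE 1.14, adjusted p = 0.416 by limma). The NaPr rise in rank was lost in limma without a trend (adjusted p = 0.248), and the change was -2.42 points when peaks were ranked by fold enrichment and -0.14 points in windows around summits.

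H2BC8/H2AC8, the divergent H2B and H2A pair, fell in rank in both experiments. With NaPr its region, chr6:26216249-26217433, ranked 89.1, 88.7 and 89.8 untreated and 85.5, 82.6 and 82.8 treated, a change of -5.59 points (SE 1.24, adjusted p = 0.0287 by limma). With NaBu its region, chr6:26216207-26217501, ranked 89.6, 86.3 and 87.7 untreated and 84.4, 84.7 and 84.2 treated, a change of -3.44 points (SE 1.06, adjusted p = 0.0370 by limma). All treated libraries lay below all untreated ones in each experiment. On the log2 tag scale the NaBu difference was -0.28 (SE 0.10, adjusted p = 0.0260 by limma) and the NaPr difference was 0.10 (SE 0.23, adjusted p = 0.844 by limma). With tags scaled by the median in place of background, the NaPr difference was -0.16 (adjusted p = 0.327 by limma). With NaPr the fall thus passed in rank and in neither scaling of tags, and the sign in tags depended on the scaling. The rank call was lost with NaPr when any one of the 6 libraries was left out (adjusted p of 0.0629 to 0.0969 by limma), and with NaBu when any one but untreated replicate 2 was left out (0.0758 to 0.0964). Both calls were lost in limma without a trend (adjusted p = 0.204 with NaPr and 0.157 with NaBu), and the NaBu call also among the top 50000 intervals, in summit windows and among regions with a peak in all 6 libraries (0.0531 to 0.0869).

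The NaPr tag scale carried a shift: its median over all regions with a peak in all 6 libraries was 0.20, that of the 48 histone start regions 0.27, and that of other start regions -0.01. Without untreated replicate 2 the first of these was 0.04 and the second 0.08. H4C9, an H4 gene, had 42, 67 and 78 tags untreated and 71, 72 and 136 treated, a log2 difference of 0.91 (SE 0.24, adjusted p = 0.00306 by limma). Its ranks, at 84.2, 84.2 and 80.5 untreated and 90.7, 86.0 and 88.7 treated, did not overlap but did not pass, with a change of 5.47 points (SE 1.62, adjusted p = 0.0655 by limma). H1-3, a linker histone gene, had 22, 32 and 36 tags untreated and 23, 39 and 69 treated, which overlap, with a log2 difference of 0.79 (SE 0.27, adjusted p = 0.0313 by limma). H2BC5, H4C9 and H1-3 were the 3 of 48 start regions that passed as higher on this scale, and 0 passed as lower; without treated replicate 3, 0 of 48 passed as higher. Among other start regions 1.5% passed as higher and 0.983% as lower on this scale, and 13.4% of all regions passed as higher. H4C9 and H1-3 were named for this after their values were seen.

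Among 42 flanking regions, those within 1 kb of a histone gene but over no histone start, 2 were higher and 1 was lower with NaPr, beside 4.43% and 4.09% of regions within 1 kb of other protein-coding genes and over no start. Of the 25 within 1500 bp of a histone start, 0 were higher and 1 was lower. Regions within 1500 bp of other protein-coding starts and over none, not limited to 1 kb from the gene, were higher in 3.53% and lower in 7.53%. Treated ranks lay wholly above untreated ranks in 1 of the 25, beside 9.98%, and wholly below in 7, beside 21.6%. Inside the long annotated model of H2AC25, 4544 bp from its start, chr1:228451953-228453329 ranked 72.0, 70.0 and 74.4 untreated and 89.6, 87.1 and 89.7 treated, a change of 16.6 points (SE 1.85, adjusted p = 0.00403 by limma). Inside the long model of H2BC4, chr6:26112778-26114005 had no listed peak untreated and ranked 55.9, 38.3 and 39.7 treated. Downstream of H2BC21 and near H2AC20, chr1:149885643-149886041 ranked 38.4, 37.4 and 67.9 untreated and had no listed peak treated. The regions at H2BC4 and H2BC21 entered the test only through the group in which they had peaks, so their calls are a description. Over the 25 the median change was -13.3 points, beside -2.11 points at other genes, while their tags, measured in 10 of them, were above 0 in 8 with a median log2 difference of 0.38. The rank calls with NaPr needed every treated library: with any of the 3 left out, 0 of all 129351 regions passed, although 29463 to 30637 had an unadjusted p under 0.05. Without 1 untreated library 315 to 2429 regions passed, and H2BC5 passed only without untreated replicate 1.

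After NaBu the start regions again changed little in rank. Of 46 start regions, 1 was higher and 3 were lower, beside 6.66% higher and 25.0% lower among 10979 start regions of other protein-coding genes and 19.6% higher and 17.3% lower among all 127305 regions. The median change was -0.04 points for the 46 and -1.20 points for the other start regions. Treated ranks lay wholly below untreated ranks in 7 of 46 and wholly above in 3, beside 33.2% and 12.2% of other start regions.

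H4C13 lost its listed start peak. Its region, chr6:27873122-27873668, ranked 37.8, 30.0 and 42.0 in untreated libraries from 31, 20 and 29 tags and had no listed peak in the 3 NaBu-treated libraries. It entered the test only through the untreated libraries, so its call, 1 of the 3 lower, is a description. In the NaPr experiment H4C13 kept a peak in all 6 libraries, with overlapping ranks of 79.6, 70.5 and 71.6 untreated and 63.1, 72.2 and 67.8 treated.

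H2BC10, an H2B gene, fell with NaBu. Its region, chr6:26271971-26273286, ranked 85.8, 85.8 and 86.9 untreated and 81.7, 81.8 and 80.8 treated, a change of -4.72 points (SE 0.995, adjusted p = 0.00879 by limma). Tags were 236, 171 and 198 untreated and 140, 157 and 146 treated, a log2 difference of -0.39 (SE 0.10, adjusted p = 0.00250 by limma), so rank and tags moved the same way. The rank call was lost in limma without a trend (adjusted p = 0.0630) and when peaks were ranked by fold enrichment (adjusted p = 0.0700 by limma). With NaPr its start region was narrower, chr6:26272743-26273286, so the 2 regions are not the same stretch. Its NaPr ranks overlapped, with a change of -4.11 points (SE 3.02, adjusted p = 0.393 by limma).

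One region over the starts of H3C1/H4C1, a neighbouring H3 and H4 gene, rose in rank in the NaBu experiment. In all 6 libraries its strongest summit lay 1008 to 1092 bp downstream of the H3C1 start. From the H4C1 start this summit lay at -190 to -106 bp. The values are thus those of a peak near H4C1 and do not describe the H3C1 start. The region, chr6:26020130-26022075, ranked 88.1, 90.3 and 88.4 untreated and 93.1, 92.6 and 90.6 treated, a change of 3.17 points (SE 0.945, adjusted p = 0.0329 by limma). Its tags were 303, 226 and 232 untreated and 245, 250 and 219 treated and overlapped, with a log2 difference of -0.03 (SE 0.10, adjusted p = 0.783 by limma). The rise was thus one of place among peaks and was not seen in tags. The call was lost without untreated replicate 1 or 3 or without treated replicate 1 or 2 (adjusted p of up to 0.113 by limma), in limma without a trend (0.185) and when peaks were ranked by fold enrichment (0.0708).

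**Figure D3:**
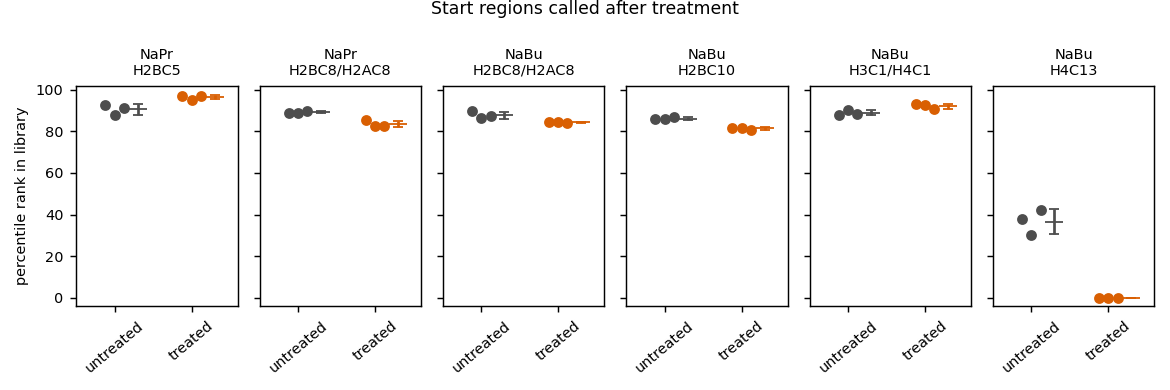
Percentile rank in each library (points, 3 untreated and 3 treated, with mean and SD) for the start regions called by limma in either experiment. Treated and untreated points do not overlap in any called region, and H4C13 goes from 30.0 to 42.0 to no listed peak.

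On the NaBu tag scale, whose median over all regions was -0.02, the 45 histone start regions with a peak in all 6 libraries had a median of -0.13, and 40 were below 0. Other start regions had a median of -0.33, with 86.7% below 0. Of the 45, 11 passed as lower and 0 as higher, beside 59.6% lower among other start regions. H4C2, an H4 gene named here after its values were seen, had 231, 200 and 233 tags untreated and 170, 148 and 143 treated, a log2 difference of -0.48 (SE 0.12, adjusted p = 0.00213 by limma), while its ranks of 82.2, 87.8 and 88.1 untreated and 84.9, 80.2 and 80.6 treated overlapped. The gene is 388 bp long, and these tags came from summits 893, 894 and 898 bp downstream of its start untreated. In treated libraries the summits lay at 889, 795 and -117 bp. The tags thus compare different places, and most lay beyond the gene and not at its start.

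**Figure D4:**
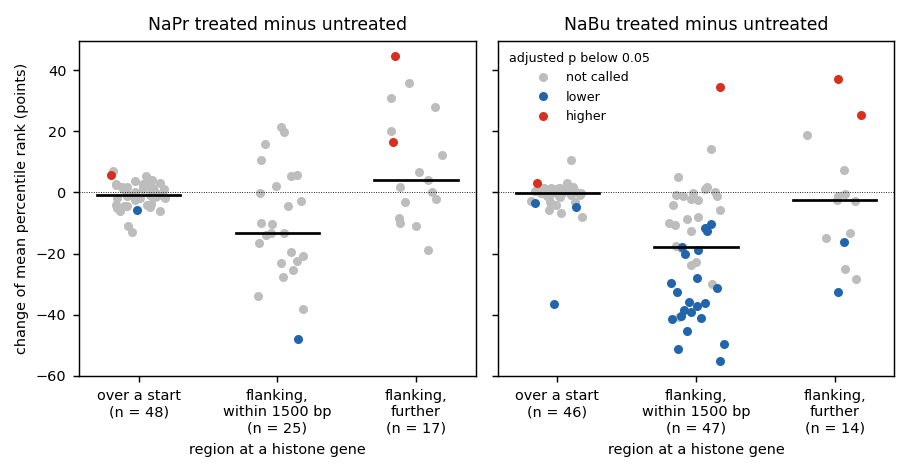
Change of rank, treated minus untreated, in mean percentile rank points (vertical axis), of each region at a histone gene (points) by place and experiment, coloured by limma call, with lines at the medians. Start regions have medians of -0.73 points with NaPr and -0.04 points with NaBu, and flanking regions within 1500 bp of a start have medians of -13.3 and -17.7 points.

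Many flanking regions fell in rank after NaBu. Of 61 flanking regions, 24 were lower and 3 higher, beside 18.8% and 19.3% of regions within 1 kb of other protein-coding genes and over no start. Long models such as those of H2BC4 and H2AC25 reach far from a start, so regions within 1500 bp of a histone start were also counted alone: 22 of 47, or 46.8%, were lower and 1 was higher. Among 7872 regions within 1500 bp of starts of other protein-coding genes and over none, 33.5% were lower and 10.5% higher. These were not limited to 1 kb from the gene, and their median width was 338 bp beside 152 bp for the 47. The median change was -17.7 points for the 47 and -9.08 points for the 7872. Treated ranks lay wholly below untreated ranks in 25 of 47, beside 38.1%. Whether 46.8% differs from 33.5% was not tested. Of the 22, 8 had no treated peak and so entered the test only through the untreated group. The same held for chr1:149885382-149885522, chr6:26025766-26025914, chr6:26195909-26196209 and chr6:27145494-27145646, each with a peak in only 1 treated library. Their calls, like those of the 8, are a description. Where a peak was required in all 6 libraries, 8 of 21 were lower, beside 14630 of all 73594 regions. The share near other starts is not given for that filter. On the tag scale 11 of 21 passed as lower, or 52.4%, beside 48.6%, and the medians were -0.30 and -0.29.

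These 22 regions lay at 22 of the 37 genes that had such a region, since some genes had several and some regions served several genes. They were 90 to 869 bp wide, and 8 kept a peak in all 3 treated libraries. At the 6 duplicated genes 4 of 6 were lower, and elsewhere 18 of 41. The peak caller's local background, relative to the list's lowest, was also lower in treated libraries, with a median over the 47 of 10.8 in untreated and 8.11 in treated libraries. At the NaBu start regions it was 9.55 untreated and 7.94 treated. With NaPr it was higher in treated libraries, at 4.33 untreated and 5.59 treated over starts and at 5.44 and 7.08 over near flanks. Its part in these results was not tested.

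H4C5, an H4 gene, had the largest fall in tags among the 8 of these regions in which tags could be compared, those with a peak in all 6 libraries. Its downstream region, chr6:26205663-26206531, ranked 70.3, 69.6 and 68.3 untreated and 47.8, 37.7 and 33.9 treated, a change of -29.6 points (SE 4.73, adjusted p = 0.00311 by limma). Tags were 137, 98 and 104 untreated and 58, 56 and 53 treated, a log2 difference of -0.96 (SE 0.13, adjusted p = 1.03e-05 by limma). The start of H4C5 itself did not pass in rank. Downstream of H2AC11, an H2A gene, chr6:27133781-27134136 ranked 76.5, 75.5 and 81.0 untreated and 59.2, 51.8 and 62.1 treated, a change of -20.0 points (SE 3.46, adjusted p = 0.00419 by limma), while its start region was at 95.3 to 96.2 untreated and 95.4 to 97.2 treated.

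Other flanks lost their listed peak. Upstream of H4C3, an H4 gene, chr6:26103222-26103327 ranked 43.3, 41.3 and 36.1 untreated and had none treated. Downstream of H3C8, an H3 gene, chr6:26270547-26270727 ranked 38.1, 36.7 and 42.4 untreated and had none treated. Upstream of H4C14, one of the duplicated H4 genes, chr1:149831426-149831700 ranked 39.4, 54.8 and 59.1 untreated and had none treated. These calls rest on regions that entered the test only through the untreated group and are a description. In the other direction, downstream of H3C6, an H3 gene, chr6:26225633-26226267 ranked 31.4, 0 and 36.1 untreated and 54.1, 60.2 and 56.9 treated, a change of 34.6 points (SE 9.48, adjusted p = 0.0241 by limma). Inside the long model of H2AC25, chr1:228437992-228438721 and chr1:228452160-228452508 had no listed peak untreated and one in all 3 treated libraries. The flanks named were chosen after their values were seen.

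**Figure D5:**
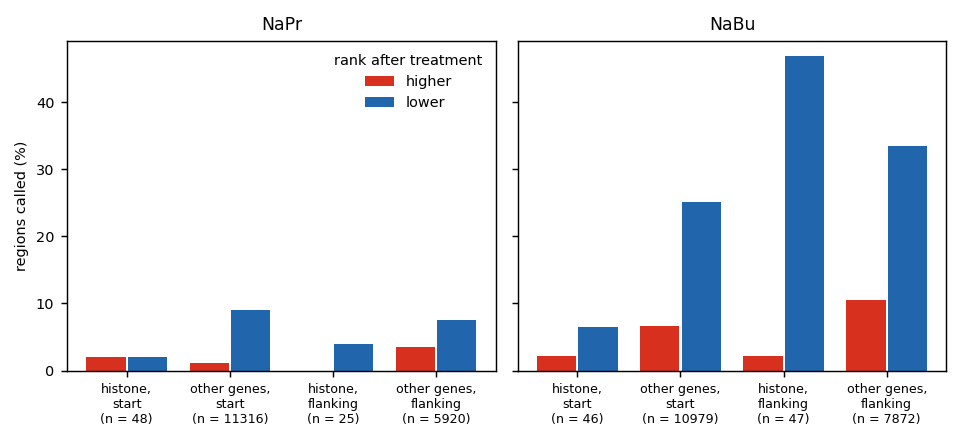
Share of regions called lower or higher (%) at histone genes and in the background sets, by experiment. With NaBu, 46.8% of flanking regions near histone starts were lower beside 33.5% of those near other starts, and 6.52% of histone start regions were lower beside 25.0% of other start regions. The flanking regions near other starts were not limited to 1 kb from the gene and had a larger median width.

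Genes that act on histones were read from their own start regions. Of the factors that transcribe histone genes or process their mRNA, 0 of 13 passed with NaPr, and 3 of 12 were lower and 0 higher with NaBu, where 25.0% of other protein-coding start regions were lower. SLBP, which binds the stem-loop, ranked 97.5 ± 0.731 untreated and 96.0 ± 0.372 treated (SD, n = 3; -1.54 points, adjusted p = 0.0468 by limma). LSM10, of the U7 particle that cuts histone pre-mRNA, ranked 93.9 ± 0.610 untreated and 91.2 ± 1.15 treated (SD, n = 3; -2.71 points, adjusted p = 0.0244 by limma). CCNE2, a cyclin E, had no listed peak over its start in the 3 NaBu-treated libraries, and entered the test only through the untreated ones. NPAT did not pass in either experiment.

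Among replication-independent and variant histone genes with a start region, 2 of 9 were lower with NaPr and 2 higher and 1 lower with NaBu, beside 8.96% lower with NaPr and 6.66% higher and 25.0% lower with NaBu among other start regions. CENPA, the centromeric H3, was lower with NaPr (-7.27 points, adjusted p = 0.0234 by limma) and with NaBu (-11.1 points, adjusted p = 0.00103 by limma). H1-10, a linker variant, was lower with NaPr (-21.0 points, adjusted p = 0.00671 by limma). H2AZ1, an H2A variant, and H2AJ, another, were higher with NaBu (2.75 points, adjusted p = 0.0353 and 3.23 points, adjusted p = 0.00998 by limma).

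Of 7 histone chaperone genes, NASP was higher with NaPr (3.08 points, adjusted p = 0.0317 by limma), and with NaBu ASF1A was higher (4.55 points, adjusted p = 0.00386 by limma) and CHAF1B and HIRA were lower (-8.81 points, adjusted p = 0.0279 and -8.33 points, adjusted p = 0.00883 by limma). These are 1 of 7 higher with NaPr, and 1 higher and 2 lower with NaBu, beside 1.09% higher with NaPr and 6.66% higher and 25.0% lower with NaBu among other start regions. Of 16 DNA replication genes, 0 passed with NaPr, and with NaBu 3 were lower and 0 higher, which is below the 25.0% lower among other start regions. These were the replication licensing factor CDT1 (-41.8 points, adjusted p = 0.0124 by limma), thymidylate synthase TYMS (-6.44 points, adjusted p = 0.00197 by limma) and the helicase subunit MCM5 (-4.48 points, adjusted p = 0.0185 by limma). A peak in all 6 NaBu libraries was listed for 15 of the 16 start regions. Ranks of CDT1 by library are not given here, and its fall could include a lost peak.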

How the data were processed

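ATAC-seq was measured in 12 SW480 libraries, 3 per group. Per the labels and the study's methods, the authors aligned reads to hg38 with Bowtie2 2.3.1 and called peaks in each library with MACS2 2.1.0. The deposited peak lists give a fold enrichment (a ratio), a −log10 p-value, a −log10 q-value and the summit position of each peak. The numbered peaks end at 300000 in each list, and 0.179% to 0.326% of numbered lines are missing from the lists used here, so no listed peak means none in these files. How reads matching several places were treated is not given in the sources used here. Mouse CT26 lists were not used.

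Peaks of an experiment were merged where they overlapped by 1 bp, and regions with a peak in at least 2 of 6 libraries were tested. Ranks were tested with limma 3.58.1 (R 4.3.3; lmFit, eBayes with trend, two-sided), with Benjamini-Hochberg adjustment over all regions and calls below 0.05. Tags were recovered by inverting the Poisson tail from the deposited fold and p-value (100% of summits), divided by background and taken as log2 values. A region listed in one group only enters the test through that group. The fit was tested on simulated data. A region belonged to a gene within 1 kb of it (GENCODE 44), and its start region overlapped the annotated 5′ end. Named genes were those called in their start region, those without a peak, the 3 highest and 3 lowest, and called genes of other lists. The members and lists were chosen with earlier results of these data known. Other ranks, filters, units, scalings and left-out libraries were tried. Python 3.11.15 was used otherwise.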

Additional observations from a re-analysis of the deposited data

How the results depend on the processing

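Results that moved by more than 1.5 times are given here, from 3 higher, 2 lower and 10809 in all with NaPr, and 4 higher, 27 lower and 47033 in all with NaBu. At histone genes with NaPr, ranking by fold enrichment gave 1 higher (4719 over the whole table), windows around summits 6 lower, no presence filter 1 lower (4968 in all), tags scaled by background 8 higher and 0 lower, and tags scaled by the median 8 higher (21388 in all). With NaBu, limma without trend gave 2 higher, with 0 start regions higher and 1 lower. The top 50000 intervals gave 2 higher, 11 lower, 9 flanking lower and 24009 in all. Summit windows gave 8 higher, 54 lower, 4 start regions higher, 50 flanking lower and 71982 in all. A peak in all 6 libraries gave 1 higher, 10 lower, 1 start region lower, 9 flanking lower and 29714 in all. Tags scaled by background gave 0 higher, 0 start regions higher, 11 start regions lower and 13 flanking lower, and tags scaled by the median gave 0, 0, 9 and 13. Regions overlapping the gene itself gave 12 lower. Taking the strongest peak per gene moved genes called with NaPr from 1 higher and 2 lower to 3 and 0, and genes lower with NaBu from 4 to 1. The cause of these moves was not tested, except that the stricter filters left fewer regions.

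Leaving out one library gave 0 to 2 higher, 0 lower and 0 to 2429 in all with NaPr. With NaBu it gave 2 to 5 higher, 23 to 28 lower, 20 to 25 flanking lower, 0 to 3 start regions higher, 2 to 4 lower and 39391 to 44074 in all. Correlations of same-number replicates were 0.00693 to 0.0436, and those of different numbers were -0.0318 to 0.0180. Values this small do not settle whether replicate numbers pair the samples, and the main fit used no pairing. A replicate block gave 1 higher, 0 lower and 632 in all with NaPr, and 2 start regions higher with NaBu.

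The NaPr change of H2BC5 turned to -2.42 when ranked by fold and to -0.14 in summit windows. That of H2BC8/H2AC8 turned to 0.10 with tags scaled by background and was -0.16 with tags scaled by the median. The NaBu change of H3C1/H4C1 turned to -0.035 with tags scaled by background and to -0.025 with tags scaled by the median. Among named start regions H2BC10 kept its call with NaBu in 13 of 15 alternatives. H4C13 kept its call with NaBu in 10 of 11. Its region entered the test only through the untreated libraries, so that count is a description and does not measure how firm the call is. Alternatives that required a peak in every library, the tag scales included, could not hold this region. It was also not tested among the top intervals. The annotated canonical start, flanks within 1500 bp and tags without one library, were chosen after seeing the data. With 3 libraries a group and peak lists that end at 300000 summits, changes in weak regions below a list's limit were not detectable.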

Other observations

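The histone windows hold 58 other protein-coding genes, and their start regions were read in the same fit (limma, adjusted over all regions). With NaPr 1 of 38 was higher and 3 lower, and with NaBu 3 of 39 were higher and 6 lower, beside 1.09% and 8.96% with NaPr and 6.66% and 25.0% with NaBu among other protein-coding start regions. ZNF184, a zinc finger gene, was lower with NaPr (-2.73 points, adjusted p = 0.0394) and with NaBu (-4.84 points, adjusted p = 0.00379). The butyrophilin genes BTN3A1 (-3.08 points, adjusted p = 0.0264) and BTN3A3 (-17.2 points, adjusted p = 0.0229) were lower with NaBu, as was the synaptic vesicle gene SV2A (-20.6 points, adjusted p = 0.0473). RNF187 (9.26 points, adjusted p = 0.00589) and NOTCH2NLC (15.8 points, adjusted p = 0.0334) were higher with NaBu.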
